A study of Mus musculus with 2 samples.

Results

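The genes described here encode 10 enzymes and transporters through which macrophages take up or consume arginine, make itaconate or degrade tryptophan. They were chosen by symbol (Arg1, Arg2, Nos2, Ass1, Slc7a2, Irg1, Ido1, Kynu, Kmo and Il4i1) from 16112 genes that were detected in at least 3 cells, of which 16102 remained after each symbol was kept once, and all 10 were among them. The study asked how loss of Fcmr changes tumor mononuclear phagocytes. The cells were mononuclear phagocytes sorted for MerTk and CD64 from B16 melanoma tumors. B16 is a mouse melanoma line that was grown in C57Bl/6 mice, either Fcmr+/+ mice or Fcmr-/- mice, which lack Fcmr, a receptor for IgM. The age of the mice and the number of mice behind each library are not given in the sources used here, and each genotype had 1 droplet-based single-cell library.

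Arginase, encoded by Arg1 for the cytosolic and Arg2 for the mitochondrial form, splits arginine into ornithine and urea, and Arg1 is a widely used gene of alternatively activated and tumor-associated macrophages. Inducible nitric oxide synthase, encoded by Nos2, uses the same arginine to make nitric oxide and citrulline and is a widely used gene of macrophages activated by interferon-gamma and bacterial products. Ass1 carries out the first step that returns citrulline to arginine, and Slc7a2 is a transporter that brings arginine into the cell. Irg1, also named Acod1, makes itaconate from a citric acid cycle intermediate in activated macrophages. Ido1 opens the kynurenine pathway of tryptophan breakdown, Kmo and Kynu act further along it, and Il4i1 is a secreted oxidase of aromatic amino acids.

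After the filters on genes and mitochondrial UMIs (unique molecular identifiers, each standing for 1 captured transcript), 6352 Fcmr+/+ cells with 128408544 UMIs and 7999 Fcmr-/- cells with 124630621 UMIs were kept. The median cell held 17973.5 UMIs in the Fcmr+/+ library and 12911 in the Fcmr-/- library, and 73 cell barcodes occurred in both. Fcmr itself had 7 UMIs in the Fcmr+/+ library and 6 in the Fcmr-/- library, too few to check the genotype labels. All 9 macrophage markers on the list used were detected, with summed levels of 20473 and 19038 UMIs per 1000000 UMIs (CPM) in Fcmr+/+ and Fcmr-/- cells. Since each genotype had a single library, variation among mice could not be measured, so no test between genotypes was possible and no p-value is given. The 95% intervals below are exact and cover counting error only.

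Nos2, Irg1 and Ass1 were higher in the Fcmr-/- library, by 4.66-fold, 3.82-fold and 2.13-fold in CPM. Arg1, the gene with the most UMIs of the group, differed less, at 1.31-fold. Of the 10 genes, 6 reached 5 CPM in at least one library, and 3 of these 6 were higher by 1.5-fold or more on the scale of CPM + 1. Over all 8701 genes at 5 CPM, 2.4% were higher in the Fcmr-/- library by that measure and 1.69% lower, 4.09% in either direction. Nos2 and Irg1 also passed 2-fold, as did 0.793% of genes upward and 0.287% downward. By log2 ratio of CPM + 1, Nos2 ranked 19, Irg1 21 and Ass1 73 from the highest of these 8701 genes.

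**Figure D1:**
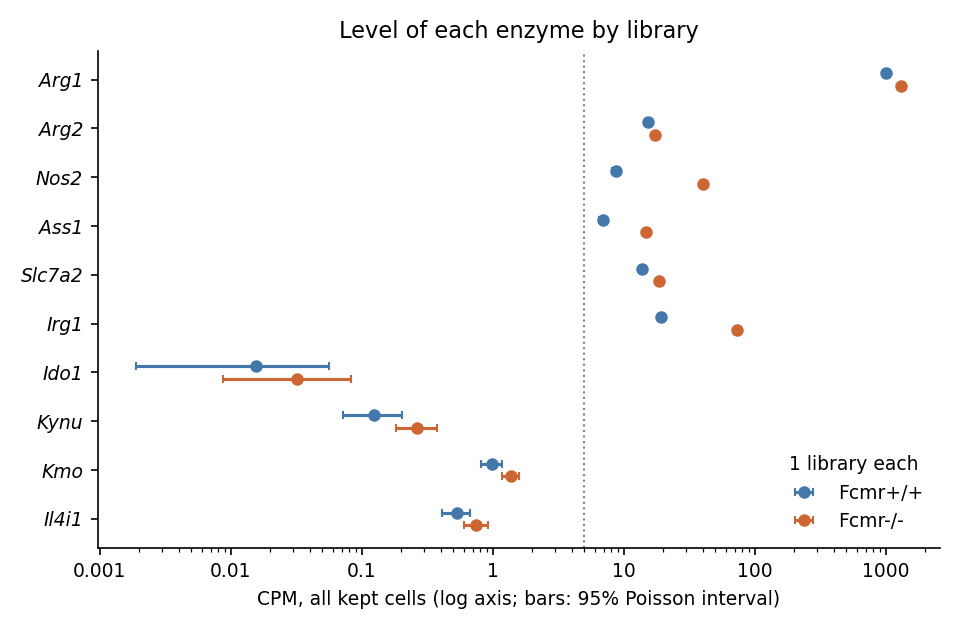
Level of each of the 10 genes over all kept cells, in CPM on a log axis, for the Fcmr+/+ and the Fcmr-/- library, with exact 95% Poisson intervals as bars and the limit of 5 CPM as a dotted line. The libraries lie farthest apart for Nos2 (8.67 and 40.4 CPM) and Irg1 (19.04 and 72.8 CPM), and Ido1, Kynu, Kmo and Il4i1 lie left of the line in both.

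Arg1 (ENSMUSG00000019987, minus strand, chr10:24915221-24927484 of GRCm38) had 128670 UMIs or 1002 CPM (interval 997 to 1008) in Fcmr+/+ cells. It had 163025 UMIs or 1308 CPM (interval 1302 to 1314) in Fcmr-/- cells, a log2 ratio of 0.38. After every cell was thinned to 6000 UMIs to make the shares comparable, the share with an Arg1 UMI was 53.7% (interval 52.5 to 54.9) in Fcmr+/+ and 65.4% (interval 64.3 to 66.5) in Fcmr-/- cells. Counted on all UMIs it was 71.5% and 77.7%. In cells with at least 5 T and NK cell marker UMIs and under 0.5% macrophage marker UMIs, which should lack Arg1 if they are lymphocytes, 6 of 12 Fcmr+/+ cells (50%) and 13 of 27 Fcmr-/- cells (48.1%) had an Arg1 UMI, at 331 and 364 CPM and median depths of 12309.5 and 11792 UMIs. A share of cells with an Arg1 UMI is therefore read as detection only, not as a share of cells that express the gene.

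Arg1 UMIs were unevenly spread over cells. The 10% of cells with the most Arg1 held 60.1% of its UMIs in the Fcmr+/+ library and 49.0% in the Fcmr-/- library. At least 10 Arg1 UMIs were found in 34.2% of Fcmr+/+ cells (2170 cells) and 42.4% of Fcmr-/- cells (3391 cells). The second arginase gene, Arg2 (ENSMUSG00000021125, plus strand, chr12:79130777-79156301), had 15.4 CPM (interval 14.7 to 16.1) and 17.4 CPM (interval 16.7 to 18.2), a ratio of 1.13. That ratio fell below 1 when cells under 10000 UMIs were left out (log2 ratio -0.07) and when the log2 ratios within clusters of cells were averaged (-0.14), so no direction is given for Arg2. Arg2 overlaps genes on the opposite strand, among them Vti1b, and whether counting used strand is not given in the sources used here.

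Nos2 (ENSMUSG00000020826, plus strand, chr11:78920787-78960254) had 1113 UMIs or 8.67 CPM (interval 8.17 to 9.19) in Fcmr+/+ cells. In Fcmr-/- cells it had 5035 UMIs or 40.4 CPM (interval 39.3 to 41.5). The intervals do not overlap, and the ratio was 4.66 (interval 4.37 to 4.98). In thinned cells, 237 of 6352 Fcmr+/+ cells (3.73%) and 839 of 7556 Fcmr-/- cells (11.1%) held a Nos2 UMI, against 6.55% and 16.8% without thinning. In the T and NK marker cells described above, 1 of 12 Fcmr+/+ cells and 3 of 27 Fcmr-/- cells held one, a number too small to set a background. Between clusters of the phagocytes, described further on, the thinned share in the Fcmr+/+ library reached 20.9% in cluster 9. It was 0 of 51 cells in cluster 8, 0 of 172 in cluster 10 and 0.325% in cluster 3. In the Fcmr-/- library it differed from 2.58% in cluster 3 to 38.9% in cluster 9.

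Few cells held many Nos2 UMIs. Cells with at least 10 Nos2 UMIs numbered 11 in the Fcmr+/+ library (0.173%, interval 0.0865 to 0.310) and 115 in the Fcmr-/- library (1.44%, interval 1.19 to 1.72). The 1% of cells with the most Nos2 held 45.2% of all Nos2 UMIs of the Fcmr+/+ library and 29.8% of those of the Fcmr-/- library. Without that 1% of each library the log2 ratio was 2.36, against 2.098 with all cells. As a ratio of these arginine-consuming genes within a library, there were 116 Arg1 UMIs for each Nos2 UMI in Fcmr+/+ cells and 32.4 in Fcmr-/- cells.

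The other genes of arginine supply moved less. Ass1 (ENSMUSG00000076441, plus strand, chr2:31470207-31520672) stood at 6.89 CPM (interval 6.45 to 7.36) in the Fcmr+/+ library and at 14.7 CPM (interval 14.02 to 15.4) in the Fcmr-/- library, a log2 ratio of 0.99. Averaged within clusters the Ass1 log2 ratio was 0.44, which is below 1.5-fold. The limit of under 0.5% macrophage marker UMIs does not settle what the T and NK marker cells are. They held Ass1 at 37.9 CPM in 12 Fcmr+/+ cells and at 46.2 CPM in 27 Fcmr-/- cells, above the level of all cells. Without T and NK or dendritic marker cells the Ass1 log2 ratio was 0.98. Slc7a2 (ENSMUSG00000031596, plus strand, chr8:40862396-40922308) had 13.6 CPM (interval 13.01 to 14.3) and 18.5 CPM (interval 17.8 to 19.3), a ratio of 1.36. Slc7a2 overlaps a predicted gene on the opposite strand.

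Irg1 (ENSMUSG00000022126, plus strand, chr14:103046977-103056573) had 2445 UMIs in the Fcmr+/+ library, or 19.04 CPM (interval 18.3 to 19.8). The Fcmr-/- library had 9076, or 72.8 CPM (interval 71.3 to 74.3). The ratio was 3.82 (interval 3.66 to 4.001). In thinned cells, 6.86% of Fcmr+/+ cells (436 of 6352) and 20.9% of Fcmr-/- cells (1582 of 7556) held an Irg1 UMI, against 12.1% and 31.3% without thinning. In the T and NK marker cells, 1 of 12 Fcmr+/+ cells (8.33%) and 7.41% of 27 Fcmr-/- cells held one. At least 10 Irg1 UMIs were found in 43 Fcmr+/+ and 215 Fcmr-/- cells.

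For Irg1 and Ass1, whose levels differed between the libraries, the 250 bases before the transcript start are shown as RefSeq gives them on GRCm38.p6, plus strand, at chr14:103046762-103047011 for Irg1 (as Acod1) and chr2:31470020-31470269 for Ass1. Of the 10 genes, 4 were in the promoter table used, the others being Kmo and Il4i1. They are shown for the short motifs they hold, and capitals mark the matches. The motifs were GGAANNTCC, the ends of a kappaB site, the TATA box TATAAA, and the core of a hypoxia response element, ACGTG, each searched on both strands. In the Ass1 sequence the ACGTG matches of the plus and the minus strand overlap.
Irg1: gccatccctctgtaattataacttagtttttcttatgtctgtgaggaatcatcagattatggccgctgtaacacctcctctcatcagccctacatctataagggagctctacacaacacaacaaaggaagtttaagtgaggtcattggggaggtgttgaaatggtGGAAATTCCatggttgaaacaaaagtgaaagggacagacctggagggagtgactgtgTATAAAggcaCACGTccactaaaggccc
Ass1: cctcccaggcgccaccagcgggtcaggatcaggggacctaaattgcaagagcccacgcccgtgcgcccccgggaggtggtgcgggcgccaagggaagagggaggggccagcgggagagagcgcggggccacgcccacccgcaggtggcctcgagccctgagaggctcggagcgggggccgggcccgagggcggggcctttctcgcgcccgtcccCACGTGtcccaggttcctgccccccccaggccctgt

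In the Irg1 sequence the GGAANNTCC match lay 85 to 77 bases before the start, the TATAAA match 28 to 23 bases before it and the ACGTG match, on the minus strand, 18 to 14 bases before it. The Ass1 sequence held ACGTG matches within the 36 to 31 bases before the start, and 75.6% of its bases were G or C, against 44.4% for Irg1. Over 32851 RefSeq promoters of the same length, 3.59% held GGAANNTCC, 12.4% TATAAA and 16.6% ACGTG. A gamma-interferon activation site, TTCNNNGAA, was in 7.02% of promoters, an interferon-stimulated response element in 2.98% and a STAT6 site in 5.85%, and these letters were not in the windows of the 4 genes. A match is a run of letters and not a site known to be bound. The transcript starts used here are those of RefSeq, and both windows reach past the gene starts given above, which are from GENCODE. The TATAAA and ACGTG matches of Irg1 and the ACGTG matches of Ass1 lie inside the genes as GENCODE places them.

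The tryptophan-degrading genes were near the limit of detection. Ido1 (chr8:24584136-24597009) had 2 UMIs in the Fcmr+/+ library and 4 in the Fcmr-/- library. Kynu (chr2:43555329-43682715) had 16 and 33 UMIs, Kmo (chr1:175620381-175662116) 126 and 170, and Il4i1 (chr7:44816387-44840809) 68 and 93. All were below 1.5 CPM in both libraries, and their genotype ratios are not compared. Il4i1 overlaps Nup62 on the same strand, so its counts are uncertain.

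The few Kmo and Il4i1 UMIs of both libraries, and the Kynu UMIs of the Fcmr-/- library, were concentrated in cells that carried dendritic cell markers. At least 5 UMIs of a 9-gene dendritic list (Flt3, Zbtb46, Ccr7, Fscn1, Ccl22, Cd209a, Xcr1, Clec9a and Dpp4) were found in 64 Fcmr+/+ and 87 Fcmr-/- cells. In these cells Kmo reached 28.9 CPM (interval from 20.9) and 40.5 CPM (interval from 31.5), while cells under 5 dendritic UMIs had 0.654 and 0.822 CPM. The 64 Fcmr+/+ cells held 34.1% of all Kmo, 50% of all Il4i1 and 12.5% (2 of 16) of all Kynu UMIs of their library, and the 87 Fcmr-/- cells held 40.6% of Kmo, 53.8% of Il4i1 and 48.5% of Kynu. Whether these cells are dendritic cells is not settled by the list, since Cd209a also leads a cluster of the phagocytes. Ido1, the first enzyme of the pathway, was found in 0 of the 64 and 0 of the 87 cells. The exact upper limits for the share of such cells with an Ido1 UMI at this depth are 5.60% and 4.15%, which do not limit the share that expresses the gene.

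**Figure D2:**
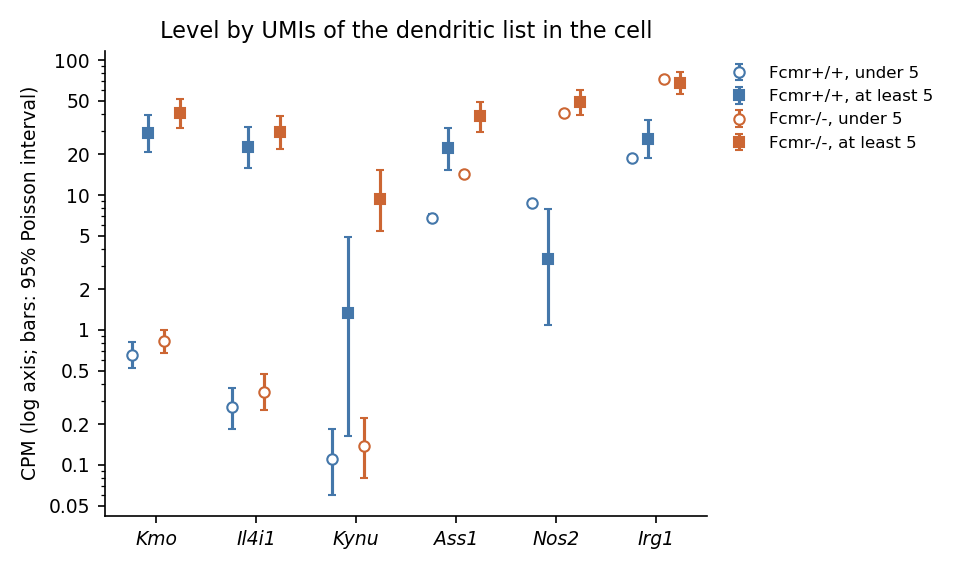
Level in CPM, on a log axis with 95% Poisson intervals, of 6 genes in cells with at least 5 UMIs of the dendritic list (squares; 64 Fcmr+/+ and 87 Fcmr-/- cells) and in cells with fewer (open circles). Kmo and Il4i1 are higher in the squares in both libraries, while Irg1 lies near the level of the other cells (26.2 and 18.96 CPM in Fcmr+/+, 68.2 and 72.9 CPM in Fcmr-/- cells).

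Ass1 was also higher in the dendritic marker cells, at 22.2 CPM against 6.71 in Fcmr+/+ and 38.2 against 14.4 in Fcmr-/- cells. Nos2 was lower in those of the Fcmr+/+ library, at 3.36 CPM from 5 UMIs against 8.73, and its intervals overlapped in the Fcmr-/- library, at 48.8 against 40.3 CPM. Kmo was also present in the T and NK marker cells, at 21.7 CPM from 4 UMIs over the 12 Fcmr+/+ cells and 46.2 CPM from 17 UMIs over the 27 Fcmr-/- ones. Il4i1 was at 37.9 CPM from 7 UMIs in the former and 2.72 CPM from 1 UMI in the latter. Kynu was at 5.42 CPM from 1 UMI and 16.3 CPM from 6 UMIs. How far these cells overlap with the dendritic marker cells is not given here.

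The Fcmr-/- library held more signal from several, though not all, cell types outside the gate. The summed level of 7 T and NK genes was 2.53 CPM in Fcmr+/+ and 18.5 CPM in Fcmr-/- cells, that of 9 dendritic genes 9.56 and 15.7 CPM, that of the 5 detected neutrophil genes 31.2 and 47.6 CPM, and that of 6 melanoma genes 40.6 and 64.1 CPM. That of 3 B cell genes went the other way, 12.3 and 10.4 CPM, and that of 5 fibroblast and endothelial genes was 4.42 and 5.60 CPM. No detected gene of these lists was at 0 in either library, and 0 of the 7 T and NK genes reached 5 CPM. Without cells that had at least 5 T and NK or dendritic UMIs, the log2 ratio was 2.09 for Nos2, 1.89 for Irg1 and 0.39 for Arg1. The summed level of 11 type I interferon genes was 620 and 951 CPM and that of 11 type II interferon genes 198 and 707 CPM. The part of these programs in the Nos2 and Irg1 differences was not tested. Cells under 10000 UMIs made up 18.7% of the Fcmr+/+ library and 33.3% of the Fcmr-/- library and had higher Nos2 in both (30.3 and 90.9 CPM). In the deeper cells Nos2 was 6.92 and 30.7 CPM, a log2 ratio of 2.00. Arg1 was 2242 and 2208 CPM in the cells under 10000 UMIs and 902 and 1135 CPM in the deeper cells.

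To see which macrophage states carried these genes, the cells of both libraries were clustered without the 10 genes or the other listed genes of these pathways among the variable genes. This gave 11 clusters, which are called by number and by their leading genes. Cluster 2 was led by Ly6c2, Ly6i and Ly6a. Its 10 leading genes also included Gbp4, Gbp2 and Cxcl9 of the type II interferon list. Cluster 8 was led by genes of that list (Iigp1, Cxcl9, Gbp2). Clusters 2 and 8 were 95.4% and 94.8% Fcmr-/- cells, so that for them cluster and library can hardly be told apart. Cluster 9 was led by type I interferon genes (Rsad2, Ifit1, Ifit3), cluster 4 by inflammatory genes (Cxcl3, Il1a, Il1b) and cluster 5 by genes of dividing cells (Ube2c, Top2a, Birc5). Cluster 6 was led by hemoglobin genes, Inhba, Slc2a1 and Egln3, and its summed level of 12 hypoxia genes was the highest of the 11, at 7222 CPM in Fcmr+/+ and 8218 CPM in Fcmr-/- cells. Its cells were shallow, with a median of 8961 UMIs, as were those of cluster 9 with 8835.

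Clusters 6 and 9 had the highest Arg1 and Nos2 in both libraries. Arg1 stood at 3003 and 3360.4 CPM in cluster 6 (Fcmr+/+ and Fcmr-/- cells) and at 2434 and 2997 CPM in cluster 9, and was lowest in cluster 3 (Tfrc, Gas6, Ednrb) at 197 and 256 CPM. Nos2 stood at 55.9 and 198 CPM in cluster 6 and at 64.6 and 213 CPM in cluster 9, and was lowest in cluster 3 at 0.677 and 2.41 CPM. The intervals of clusters 6 and 9 overlapped for Nos2 in each library (50.9 to 61.3 and 56.2 to 74.0 CPM in Fcmr+/+ cells, 187 to 208 and 202 to 225 CPM in Fcmr-/- cells), so their order is not set. Of all Nos2 UMIs of the Fcmr+/+ library, 40.7% were in cluster 6 and 18.96% in cluster 9, and of those of the Fcmr-/- library 28.6% and 27.1%.

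**Figure D3:**
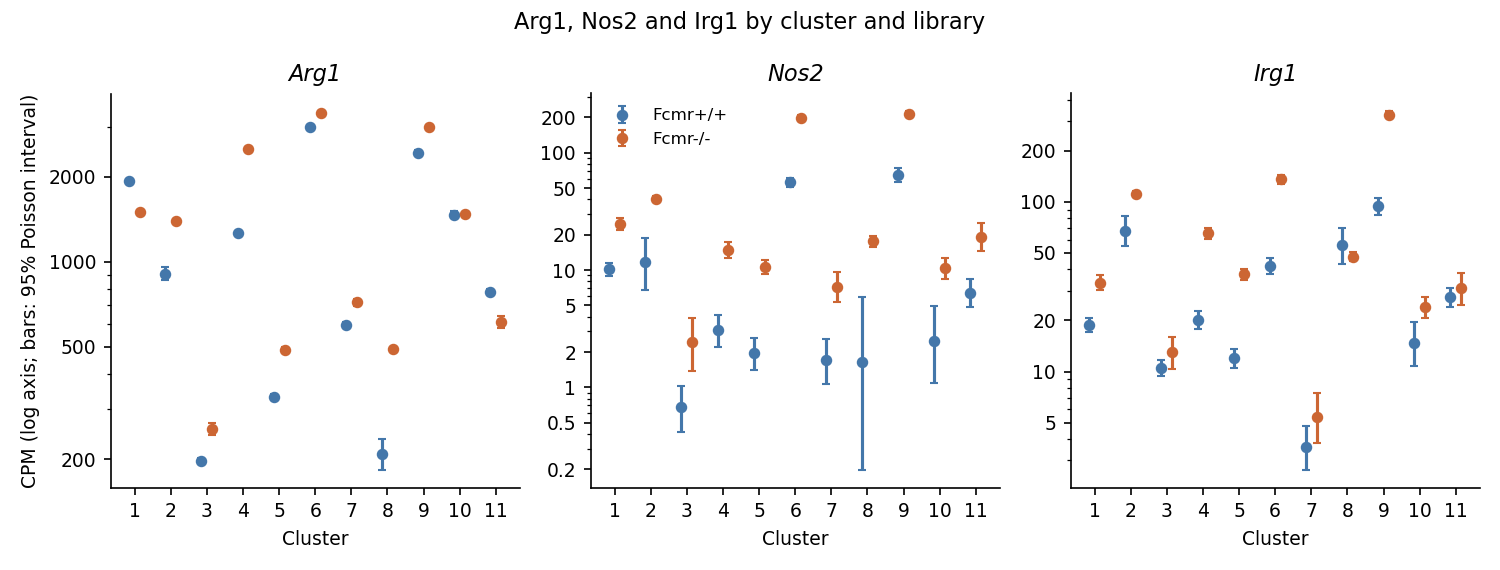
Level of Arg1, Nos2 and Irg1 in CPM, on log axes with 95% Poisson intervals, in each of 11 clusters for Fcmr+/+ and Fcmr-/- cells. Nos2 is higher in the Fcmr-/- cells of every cluster, whereas Arg1 is lower in the Fcmr-/- cells of clusters 1 and 11, and Irg1 nearly level in clusters 3, 8 and 11.

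The cluster with the highest Arg1 changed with the resolution of the clustering. At resolution 1.2 it was a group of 130 Fcmr+/+ and 395 Fcmr-/- cells, of which 21.5% and 17.0% came from cluster 6, with hypoxia sums of 5463 and 5817 CPM.

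A high summed level of the hypoxia list did not go with high Nos2 in every cluster. Cluster 11 (Adm, Cdkn1c, Mmp12) had hypoxia sums of 5181 and 5041 CPM, close to the 5132 and 5473 CPM of cluster 9. Its Nos2 was nevertheless 6.39 and 19.3 CPM, and its Arg1 780.1 and 610.2 CPM.

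Irg1 was also highest in cluster 9, at 94.3 CPM (interval 84.1 to 105) in Fcmr+/+ and 327 CPM (interval 314 to 342) in Fcmr-/- cells. Next in the Fcmr+/+ cells came clusters 2 (67.5 CPM, interval 54.9 to 82.2, 77 cells) and 8 (55.5 CPM, interval 43.1 to 70.4, 51 cells). Their intervals overlapped, and both had type II interferon genes among their leading genes. In Fcmr-/- cells cluster 6 (136 CPM) and cluster 2 (111 CPM) followed cluster 9. Irg1 was lowest in cluster 7 (Fbxo32, Acp5, Apoe), at 3.59 and 5.42 CPM. Cluster 2 alone held 31.5% of all Irg1 UMIs of the Fcmr-/- library and 20.5% of its Nos2 UMIs, against 19.8% of its cells.

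For each of the remaining arginine genes the highest cluster was 6 or 9. Cluster 6 did not stand out for Ass1, at 22.1 CPM in Fcmr-/- cells against 23.9 CPM in cluster 2. In Fcmr+/+ cells these clusters had 15.4 and 14.3 CPM. Arg2 was highest in cluster 6 (44.2 and 74.5 CPM), Ass1 in cluster 9 (31.5 and 49.2 CPM) and Slc7a2 in cluster 9 of Fcmr+/+ cells (42.6 CPM) and cluster 6 of Fcmr-/- cells (61.4 CPM). The Slc7a2 intervals of clusters 6 and 9 overlapped in each library. All of Ass1, Slc7a2, Nos2 and Arg1 were lowest in cluster 3 in both libraries.

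The Nos2 difference between libraries was present within every cluster. The ratio of CPM ran from 2.44 (interval 2.04 to 2.90) in cluster 1 to 10.7 (interval 2.95 to 88.9, on 2 Fcmr+/+ UMIs) in cluster 8, and all 11 intervals lay above 1. Of the 8701 genes at 5 CPM, 3 (0.0345%) were higher by 1.5-fold in all 11 clusters, namely Nos2, Ly6a and Ctse. Averaged over clusters by cell number, the Nos2 log2 ratio was 1.68. Fcmr+/+ counts were also low in clusters 10 (8 UMIs), 2 (17), 3 (21) and 7 (22). In Fcmr-/- cells Nos2 was 2.41 CPM in cluster 3, 7.22 in cluster 7, 10.3 in cluster 10 and 10.7 in cluster 5. The 27 Fcmr-/- T and NK marker cells had 13.6 CPM from 5 UMIs (interval 4.41 to 31.7). How much of the Nos2 in these clusters came from RNA of other cells was not tested.

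For Irg1 the difference depended on the cluster. It exceeded 1.5-fold on the CPM + 1 scale in 7 of 11 clusters, as did 0.644% of genes in at least 7. The ratios were 3.47 in cluster 9 (interval 3.08 to 3.92), 3.26 in cluster 4 (interval 2.83 to 3.77), 3.25 in cluster 6 (interval 2.87 to 3.69) and 3.14 in cluster 5 (interval 2.72 to 3.64). In clusters 3, 7, 8 and 11 the interval of the ratio held 1, with 0.857 (interval 0.670 to 1.11) in cluster 8. The average over clusters was 0.91 on the log2 scale, against 1.88 for all cells together.

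Arg1 moved in both directions, with the interval of the ratio above 1 in 8 of 11 clusters and below 1 in 2. In cluster 1 (Ccl17, Cd209a, Retnla), where the MHC class II list was highest, Arg1 was 1930.2 CPM in Fcmr+/+ and 1505 CPM in Fcmr-/- cells, a ratio of 0.7797 (interval 0.766 to 0.794). Within cluster 1 the summed dendritic genes were at 40.2 and 95.3 CPM and the T and NK genes at 8.77 and 33.9 CPM, and their part in the Arg1 difference was not tested. In cluster 11 the ratio was 0.782 (interval 0.741 to 0.825). Arg1 was higher in the Fcmr-/- cells of cluster 4 (1261 and 2513 CPM, ratio 1.99), cluster 8 (208 and 489.7 CPM, ratio 2.35) and cluster 2 (907 and 1398 CPM, ratio 1.54). In cluster 10 (Mfge8, Spp1, Gpnmb) it was level, at 1465 and 1474 CPM. Arg1 passed 1.5-fold in 3 clusters, as did 4.77% of genes in at least 3, and Ass1 in 5, as did 1.41% of genes in at least 5. Slc7a2 and Arg2 each passed it upward in 2 clusters, where 10.2% of genes did so in at least 2. Arg2 was also lower by 1.5-fold in 2 clusters (2 and 8), and Slc7a2 in 0. The share of all genes in that direction by cluster was not taken.

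Over the 22 groups formed by cluster and library, the log2 level of Arg1 followed that of Arg2 (Pearson r = 0.86), Ass1 (r = 0.79), Slc7a2 (r = 0.78) and Nos2 (r = 0.76) and less that of Irg1 (r = 0.53). Nos2 followed Slc7a2 (r = 0.87), Ass1 (r = 0.84) and Irg1 (r = 0.80). Among 6621 genes at 20 CPM in at least one group, those most like Arg1 were Cd24a (r = 0.95), Sra1, Slpi, Thbs1 and Prdx6. Those most like Nos2 were Cd274 (r = 0.91), which encodes PD-L1, Inhba, Tnfrsf9, P4ha1 and Sugt1, and those most like Irg1 were Upp1 (r = 0.91), Cd274, Rapgef2, Tmem171 and Ifi205. These are descriptions over groups that share the same 2 libraries. The genes most like Ido1, Kynu and Il4i1 are not listed, because their counts were too low to give a pattern.

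Ranking single cells on the hypoxia list gave a graded picture. Arg1 and Nos2 also climbed with the monocyte and the inflammatory list, as given below. Within each library, the cells were ordered by how many of their 6000 thinned UMIs came from 12 hypoxia genes (Vegfa, Slc2a1, Pgk1, Ldha, Mif and others) and divided into 10 equal parts, whose levels were taken from all UMIs. Most of the level of this list, 3079 CPM in Fcmr+/+ and 3320 CPM in Fcmr-/- cells, came from Ldha (1123 and 1149 CPM) and Mif (916 and 1073 CPM). From the lowest to the highest part, Arg1 went from 73.1 to 3538 CPM in Fcmr+/+ and from 132 to 4037 CPM in Fcmr-/- cells. Nos2 went from 0.325 CPM on 4 UMIs to 66.5 CPM in Fcmr+/+ and from 2.80 to 233 CPM in Fcmr-/- cells. Irg1 went from 5.60 to 48.6 CPM and from 20.3 to 179 CPM. In each of the 10 parts, all 3 genes were higher in the Fcmr-/- library. The parts are ranks within a library. From part 3 on, the Fcmr-/- medians of list UMIs were higher, at 10 against 9 there and 53 against 51 in part 10. In parts 1 and 2, with equal medians, Arg1 was 73.1 and 90.4 CPM in Fcmr+/+ and 132 and 268 CPM in Fcmr-/- cells. At near medians (13 in Fcmr-/- part 4, 14 in Fcmr+/+ part 5) Arg1 was 574 and 625 CPM. Nos2 was 9.40 and 2.53 CPM there, and Irg1 52.0 and 21.4 CPM. Other near medians had more Arg1 in Fcmr-/- cells. It was 989 CPM at a median of 16 (Fcmr-/- part 5) and 867 CPM at 18 (Fcmr+/+ part 6). In part 7 (medians of 24 and 23) Arg1 was 1621 CPM in Fcmr-/- and 1392 CPM in Fcmr+/+ cells. In part 8 (29 and 28) it was 2298 and 1852 CPM.

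**Figure D4:**
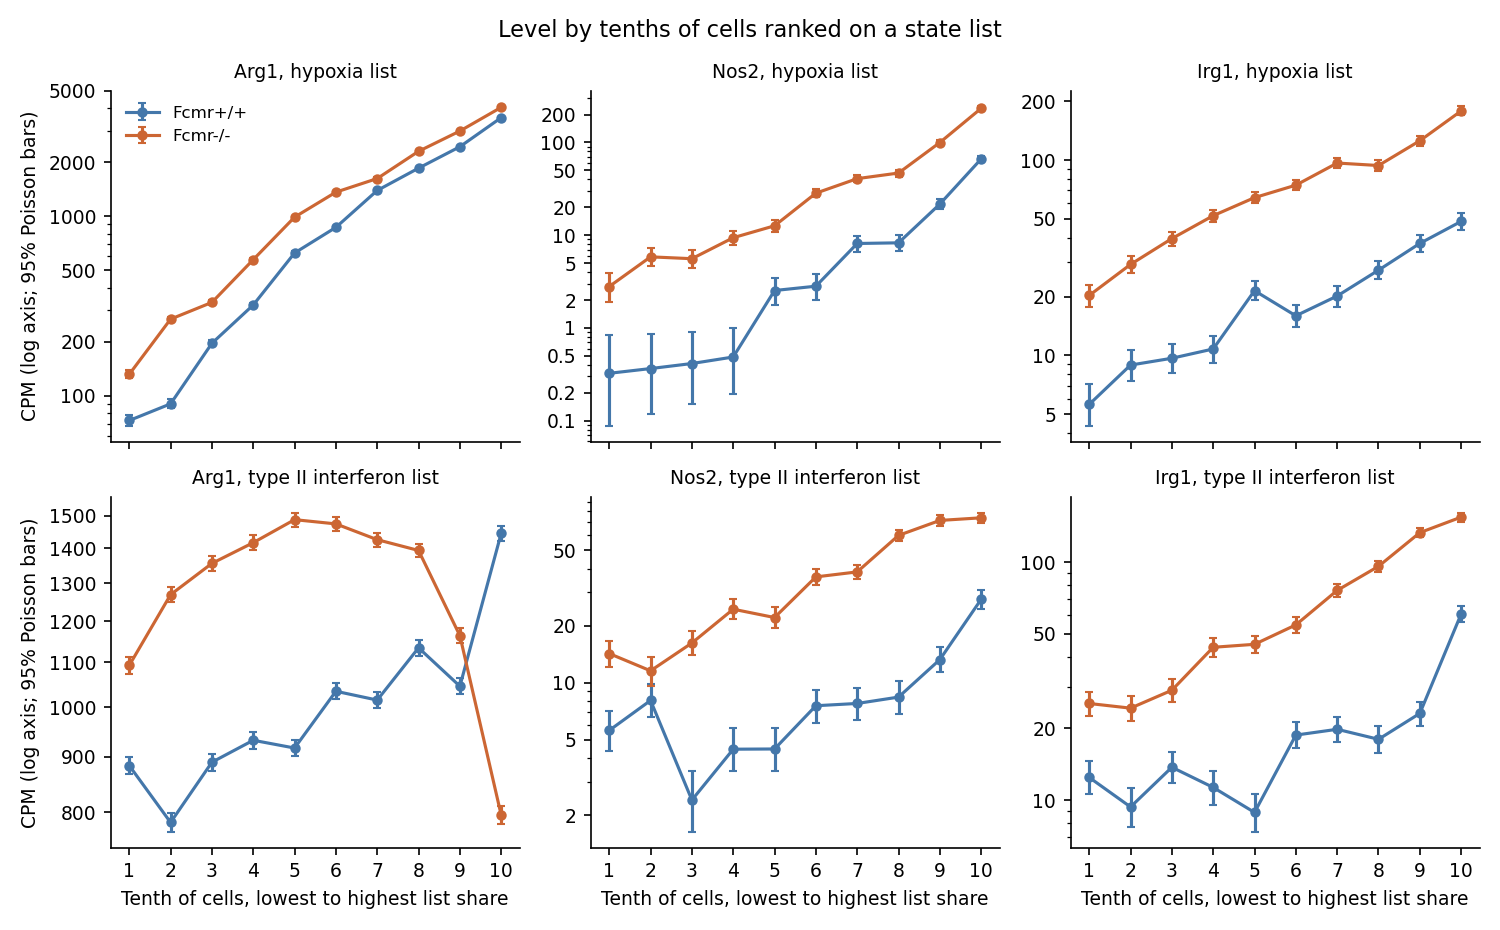
Level of Arg1, Nos2 and Irg1 in CPM, on log axes with 95% Poisson intervals, in 10 equal parts of the cells of each library ranked on the hypoxia list (top) or the type II interferon list (bottom). All 3 genes climb with the hypoxia list in both libraries, and Arg1 in Fcmr-/- cells is highest in part 5 of the type II interferon list (1488 CPM) and lowest in part 10 (795 CPM), whose median of list UMIs (16) no Fcmr+/+ part reaches.

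On the type II interferon list, Nos2 and Irg1 were higher in the highest than in the lowest part of both libraries. The parts are ranks within a library and cover unlike scores, since the highest part had a median of 4 list UMIs of 6000 in Fcmr+/+ and 16 in Fcmr-/- cells. Nos2 went from 5.60 to 27.5 CPM in Fcmr+/+ and from 14.3 to 74.1 CPM in Fcmr-/- cells between the lowest and the highest part. Irg1 went from 12.5 to 60.6 CPM and from 25.5 to 155 CPM. Arg1 rose from 883 to 1446 CPM in Fcmr+/+ cells, a ratio of 1.64. In Fcmr-/- cells Arg1 went from 1093 CPM in the lowest part up to 1488 CPM in part 5, was 1426 and 1394 CPM in parts 7 and 8, and was 1164 and 795 CPM in parts 9 and 10. At like scores (medians of 3 and 5 list UMIs in parts 7 and 8) the Fcmr-/- level was near the 1446 CPM of the highest Fcmr+/+ part. At lower medians of 0 to 2 the Fcmr-/- level of Arg1 was higher. At a median of 2, it was 1475 CPM (part 6) against 1134 and 1045 CPM in Fcmr+/+ parts 8 and 9. At a median of 0, Fcmr-/- parts 1 to 3 had 1093 to 1356 and Fcmr+/+ parts 1 to 4 had 783 to 932 CPM. The parts are ranges of a score, not cell types. On the type I interferon list all 3 genes were higher in the highest than in the lowest part of both libraries. Nos2 went from 4.84 to 31.0 CPM in Fcmr+/+ and from 16.7 to 133 CPM in Fcmr-/- cells. Irg1 went from 11.1 to 52.3 CPM and from 28.9 to 239 CPM, and Arg1 from 841 to 1638 CPM and from 1155 to 2091 CPM.

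The inflammatory list (Il1b, Cxcl2, Tnf and others) went with Irg1, from 3.38 to 74.3 CPM in Fcmr+/+ and from 22.9 to 225 CPM in Fcmr-/- cells, and with Arg2, from 5.17 to 53.7 and from 3.66 to 67.5 CPM. The tissue-resident list (Mrc1, Cd163, Folr2 and others) went the opposite way for Nos2, from 27.8 in the lowest to 0.968 CPM in the highest part of the Fcmr+/+ cells and from 76.5 to 14.97 CPM in Fcmr-/- cells. Ass1 followed the MHC class II list, from 2.19 to 24.3 CPM and from 5.41 to 39.9 CPM. Arg1 also went with the inflammatory list, from 722 to 2895 CPM in Fcmr+/+ and from 453 to 3550 CPM in Fcmr-/- cells. On the monocyte list (Thbs1, Ly6c2, Ccr2 and others) Arg1 went from 201 to 3741 CPM and from 331 to 3812 CPM. Most of the level of this list came from Thbs1, at 895 of 1356 CPM in Fcmr+/+ and 1135 of 1816 CPM in Fcmr-/- cells. Ly6c2 had 31.1 and 108 CPM and Ccr2 131 and 135 CPM, so the ranking does not stand for those genes. Nos2 went from 0.479 to 36.8 CPM and from 14.9 to 91.0 CPM on that list.

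Arg1 and Nos2, which draw on the same arginine, were found in the same cells more often than the product of their shares would give. In thinned Fcmr+/+ cells, 225 of the 237 Nos2 cells also held Arg1, against 127 by the product, a ratio of 1.77. In Fcmr-/- cells it was 751 of 839 against 549, a ratio of 1.37. Within clusters the ratios were 1.24 and 1.14, and with at least 2 UMIs of each gene they were 2.41 and 1.68. These are counts of detection, and an Arg1 UMI was also found in 50% and 48.1% of the T and NK marker cells, on all their UMIs. Counted on all UMIs, 21 of 416 Nos2 cells of the Fcmr+/+ library (5.05%, interval 3.15 to 7.61) and 97 of 1344 of the Fcmr-/- library (7.22%, interval 5.89 to 8.73) had no Arg1, and among cells with at least 10 Nos2 UMIs this was 0 of 11 and 4 of 115.

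The share of cells with Nos2 climbed with the amount of Arg1. At 0, 1 to 4, 5 to 14, and 15 or more Arg1 UMIs of 6000, it was 0.408%, 1.88%, 6.80% and 12.97% in Fcmr+/+ cells. In Fcmr-/- cells it was 3.36%, 7.66%, 14.3% and 24.8%. The Irg1 shares at the same steps were 4.35%, 7.67%, 10.8% and 9.51% in Fcmr+/+ cells and 11.9%, 18.5%, 29.2% and 31.0% in Fcmr-/- cells, and the intervals of the last 2 steps overlapped in both libraries. The cells with the most Arg1 were also the shallowest before thinning, with medians of 12619 and 10836 UMIs against 19577.5 and 14726 in cells without Arg1.

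**Figure D5:**
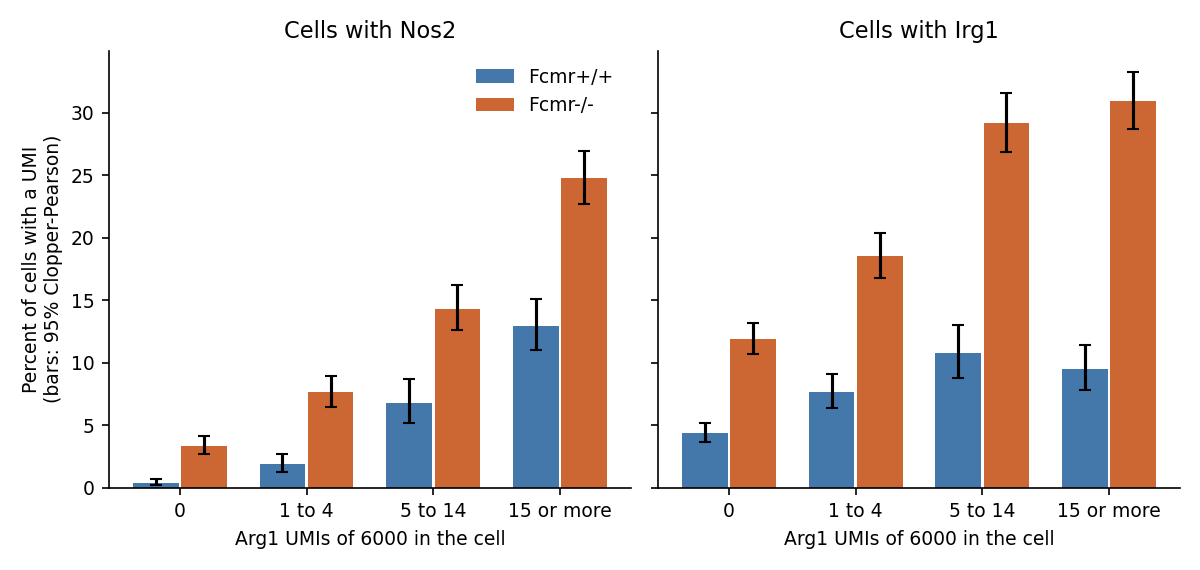
Percent of thinned cells with a UMI of Nos2 (left) or Irg1 (right) by the number of Arg1 UMIs among 6000, for Fcmr+/+ and Fcmr-/- cells, with 95% Clopper-Pearson intervals. The Nos2 bars climb from 0.408% to 12.97% in Fcmr+/+ and from 3.36% to 24.8% in Fcmr-/- cells, while the Irg1 bars overlap within their intervals over the last 2 steps.

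Within clusters, Arg1 was higher in cells with Nos2 than in cells without it. In cluster 6 it was 4765 against 2690.5 CPM in Fcmr+/+ cells and 3892 against 2981 CPM in Fcmr-/- cells. In cluster 9 it was 4143 against 2006 CPM and 3955 against 2347 CPM. Over every cluster with at least 20 such cells, 3 in the Fcmr+/+ and 8 in the Fcmr-/- library, the ratio ran from 1.31 to 2.65. For cells with Irg1 the ratio depended on the cluster. In cluster 9 their Arg1 was 2115 against 2532 CPM in Fcmr+/+ and 2703 against 3308 CPM in Fcmr-/- cells, and in cluster 6 it was 2843 against 3025 CPM and 3353 against 3325 CPM. In cluster 4, led by inflammatory genes, Irg1 cells had more Arg1 in both libraries, with ratios of 1.44 and 1.59. Over the 7 Fcmr+/+ and 8 Fcmr-/- clusters with at least 20 such cells the ratio ran from 0.794 to 3.07.

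Nos2 and Irg1 were themselves found together, in 50 Fcmr+/+ cells against 16.3 by the product of shares (ratio 3.07) and in 435 Fcmr-/- cells against 176 (ratio 2.48). Within clusters both ratios were near 1.5 (1.51 and 1.52). Cells with both genes made up 0.787% of Fcmr+/+ (interval 0.585 to 1.04) and 5.76% of Fcmr-/- cells (interval 5.24 to 6.31). In them Slc7a2 stood at 137 and 68.6 CPM and Ass1 at 67.1 and 36.7 CPM, against 11.3 and 12.1 CPM for Slc7a2 and 5.61 and 10.6 CPM for Ass1 in cells with neither. Cells with Nos2 alone had more Arg1 (3729 and 2741 CPM) than cells with Irg1 alone (1105 and 1633 CPM). The summed hypoxia level was 6677 and 5695 CPM in the former and 3737 and 3638 CPM in the latter.

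One question of the study was which Fcmr-/- cells match no cluster of the Fcmr+/+ cells. A projection of the same kind, which compares each cell with the median profile of each cluster, left 1085 Fcmr-/- cells (13.6%) unassigned, and 425 Fcmr+/+ cells (6.69%) when these were held out in turn. The held-out cells were left out of the median profiles only. The clusters and the genes compared came from all Fcmr+/+ cells, which can make the share of 6.69% too low. In the unassigned Fcmr-/- cells Nos2 was 149 CPM, 17.2-fold the level of all Fcmr+/+ cells, Irg1 168 CPM (8.83-fold) and Arg1 2109.7 CPM (2.11-fold). Of 8896 genes at 5 CPM, 9.4% were higher by 1.5-fold in that comparison and 10.4% lower. The held-out unassigned Fcmr+/+ cells, however, also had more of each gene than all Fcmr+/+ cells, with Nos2 at 51.1 CPM, Irg1 at 80.9 CPM and Arg1 at 2262 CPM. Set directly against them, the unassigned Fcmr-/- cells had 2.92-fold more Nos2 (interval 2.52 to 3.40) and 2.08-fold more Irg1 (interval 1.84 to 2.35), where 7.43% of genes were higher by 1.5-fold and 4.02% lower, and a ratio of 0.933 for Arg1 (interval 0.910 to 0.956). The size of this difference rests on the threshold: at 0.78, 296 Fcmr-/- and 110 Fcmr+/+ cells were unassigned, with Nos2 at 129 and 18.7 CPM and Irg1 at 150.2 and 91.5 CPM. At 0.86, 2835 and 1295 cells were unassigned, with Nos2 at 105 and 36.3 CPM and Irg1 at 136 and 49.3 CPM. Unassigned cells were shallow in both libraries, with medians of 6669 and 7629 UMIs.

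Of the other arginine, itaconate and tryptophan genes at 5 CPM, 0 differed by 1.5-fold in either direction. Over all 8701 genes at 5 CPM, 4.09% did. A count of 0 in lists this short is near that share and is not a result about these genes. Of 17 further arginine genes detected, 15 reached 5 CPM and 0 differed by 1.5-fold in either direction, with a median log2 ratio of -0.04 against 0.00 over all genes tested. Among them, Slc7a1, a second arginine transporter, had 17.1 and 15.9 CPM, Asl, the enzyme after Ass1, 40.7 and 38.5 CPM, and Gch1, needed for the cofactor of nitric oxide synthase, 58.0 and 56.4 CPM. All 11 further genes around itaconate reached 5 CPM and 0 differed by 1.5-fold (median log2 ratio 0.04), including Cs, which encodes citrate synthase, at 63.7 and 67.5 CPM. Of 13 further tryptophan genes detected, 6 reached 5 CPM and 0 differed by 1.5-fold, with Wars at 23.8 and 28.0 CPM and the receptor gene Ahr at 22.0 and 26.8 CPM. Among upstream regulators, those below 1.5-fold included Hif1a (113 and 134 CPM), Stat6 (54.3 and 56.0 CPM) and Nfkb1 (130.2 and 104 CPM).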

How the data were processed

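Single-cell RNA-seq libraries of sorted tumor mononuclear phagocytes, 1 Fcmr+/+ and 1 Fcmr-/-, were analysed from the deposited count matrices. Per the labels, the authors processed reads with Cell Ranger on GRCm38, giving whole-number UMI counts per gene and cell that were not normalized, and used Seurat 2.1.0. Whether the libraries pool several mice is not given in the sources used here.

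Filters kept genes found in 3 or more cells, and cells of 200 to 7000 genes whose mitochondrial UMIs were at most 30%, as in the study's methods. The deposited matrices held 6392 and 8017 cells with 131062107 and 125802196 UMIs. Levels are summed UMIs of a gene per 1000000 UMIs, with exact Poisson intervals. Shares have Clopper-Pearson intervals, and ratios of levels exact conditional binomial intervals. Log2 ratios used CPM + 1. Shares and pairs of genes were counted after thinning each cell to 6000 UMIs, which left out 443 shallower Fcmr-/- cells and 0 Fcmr+/+ cells. All cells were clustered together with Seurat 5.3.0 (10 components, resolution 0.8), leaving out the 22 of 1339 variable genes that were enzyme genes described here (7) or listed pathway genes. Projection used 1000 features and a threshold of 0.82, with Fcmr+/+ cells held out of the median profiles, but not of the clusters or features, in 10 parts. Doublets were not removed: Scrublet in scanpy 1.11.5 called 1 cell, so its calls were not used, and the highest scores were left out as an alternative only. Intervals were tested on simulated counts of 16102 genes. Of the genes at 5 CPM or more over both libraries, 95.23% had an interval that held the simulated ratio. The counts were drawn from a Poisson distribution, so this checks the computation only and not the uneven spread of UMIs over cells.

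All 10 genes are named. The lists of other pathway genes are given as counts with examples, and the 5 genes most like Arg1, Nos2 and Irg1 by Pearson r are named. Ly6a and Ctse were named after their values were seen. The genes and lists were chosen with earlier results of these data known. Gene positions are from GENCODE M21 and promoters from RefSeq. Python 3.11.15, scipy 1.17.1 and R 4.3.3 were used. Alternatives covered the pseudocount, scaling, depth, filters, doublet scores, clustering and projection threshold. Some results on listed pathway genes are not reported here.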

Additional observations from a re-analysis of the deposited data

Results flagged for a closer look

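For 3 genes the ratio between the libraries pointed in opposite directions in different clusters, with counting intervals on opposite sides of 1. Arg1 had a ratio of 0.7797 (Fcmr-/- over Fcmr+/+) in cluster 1 and 2.35 in cluster 8, the latter on 51 Fcmr+/+ cells. In cluster 8 the summed dendritic genes were at 0.816 and 10.2 CPM. Arg2 had a ratio of 0.504 in cluster 2, which held 77 Fcmr+/+ cells, and 1.73 in cluster 10. Slc7a2 had a ratio of 0.833 in cluster 1 and 1.81 in cluster 4. The difference between clusters was not tested, since each library is 1 sample and cells are not replicates.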

How the results depend on the processing

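No result changed direction for Nos2, Irg1 or Ass1 under the alternatives run. Arg1 kept its direction except in cells under 10000 UMIs, where it was 2242 CPM in Fcmr+/+ and 2208 CPM in Fcmr-/- cells. Arg2, which did not pass 1.5-fold, turned negative under 3 alternatives. Its log2 ratios were -0.14 within clusters, -0.07 in cells with at least 10000 UMIs and -0.09 without clusters 6 and 9. With a pseudocount of 5 CPM the log2 ratio was 1.73 for Nos2, 1.69 for Irg1 and 0.73 for Ass1. The Arg1 log2 ratio was 0.31 as a mean over cells, 0.25 after thinning to 6000 UMIs (Nos2 1.86), 0.29 with a stricter upper limit on genes per cell and 0.36 without the highest doublet scores. Averaged within clusters it was 0.35 for Arg1, 1.68 for Nos2, 0.91 for Irg1 and 0.44 for Ass1, the last below 1.5-fold. The following were chosen after seeing the data. Without clusters 2 and 8 the log2 ratio was 0.56 for Arg1 and 2.29 for Nos2, and without clusters 6 and 9 it was 1.75 for Irg1. Without the 1% of cells with most UMIs of the gene it was 0.44 for Arg1, 2.36 for Nos2 and 2.22 for Irg1, and in cells with at least 10000 UMIs 0.33 for Arg1. The cause of these shifts was not tested.

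Among genes with at least 20 CPM, 132 were higher and 85 lower by 1.5-fold. Among genes with at least 5 CPM, 69 were higher and 25 lower by 2-fold. On all UMIs the share of Fcmr+/+ and Fcmr-/- cells was 71.5% and 77.7% for Arg1, 6.55% and 16.8% for Nos2, and 12.1% and 31.3% for Irg1. Thinned to 3000 UMIs it was 45.7% and 57.1%, 2.61% and 8.24%, and 4.38% and 15.002%. The ratio of cells with both genes to the product of shares, in Fcmr+/+ and Fcmr-/- cells, was 1.24 and 1.14 within clusters for Arg1 with Nos2, 1.11 and 1.09 for Arg1 with Irg1, and 1.51 and 1.52 for Nos2 with Irg1. At 2 UMIs of each it was 2.41 and 1.68, 1.68 and 1.44, and 6.10 and 3.54. On all UMIs within 10 parts by depth it was 1.31 and 1.18, 1.13 and 1.098, and 1.86 for Nos2 with Irg1 in Fcmr-/- cells. In unassigned Fcmr-/- cells the log2 ratio to all Fcmr+/+ cells was 0.63 for Arg1, 3.75 for Nos2 and 2.92 for Irg1 at a threshold of 0.78, and 1.02, 3.45 and 2.77 at 0.86.

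The highest level over clusters at resolution 0.4 was 1903 and 2408 CPM for Arg1, 47.2 and 96.7 for Nos2, and 118.5 for Irg1 in Fcmr-/- cells. The cells in question then differed, since 0.315% and 6.28% of the cells of the Arg1 group came from cluster 6, and 0.318% of those of the Fcmr-/- Nos2 group from cluster 9. At resolution 1.2 it was 4269.7 and 4304 CPM for Arg1 and 74.5 for Nos2 in Fcmr+/+ cells, and with the listed genes kept among the variable genes 2827 and 3064 CPM for Arg1 and 78.01 for Nos2 in Fcmr+/+ cells. No paired analysis was possible because each genotype had 1 library and no result came from a test. Depth limits the tryptophan genes most, which had at most 170 UMIs each in a library.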
